A study of Drosophila melanogaster with 18 samples.

Results

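Heads of adult Canton-S flies that had been exposed 5 times to ethanol vapour were compared with heads of naive flies, across all genes on an Affymetrix expression array. The comparison used 12 of the 18 arrays in the series, 6 per group, chosen by the group named in the sample labels. Five-exposure flies were first kept in humidified air for 50 min and were then given 5 exposures of 40 min each to 50% ethanol vapour. The naive flies received humidified air alone for 50 min and had no ethanol. Flies of the single-exposure group, 6 arrays, received the same air and then 1 exposure of 40 min. They serve here to show whether a change was already present after 1 exposure, and their arrays also enter the fit's estimate of spread. All flies were wild-type Canton-S, 2 to 5 days old, raised at 25 °C on a 12 hr light and 12 hr dark cycle. Each array carried RNA pooled from about 60 whole heads, so that each replicate averages many flies and all head tissues. Fly sex, the spacing of the exposures and the delay before collection are not in the labels, and no group received air for as long as the 5 exposures lasted. Ethanol, repeated handling and elapsed time therefore cannot be told apart. The labels call the samples biological replicates, and the p-values measure the spread between such pools.

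Ethanol vapour sedates flies, and flies that have been sedated before need longer or stronger exposure to be sedated again, which is called tolerance. Tolerance can follow a single sedation, or build up over repeated or prolonged exposure. Flies also use ethanol as food: alcohol dehydrogenase and aldehyde dehydrogenase turn it into acetate, which acetyl-CoA synthetase links to coenzyme A, so that its carbon can enter fatty acid synthesis or be oxidised. The head holds the brain and eyes together with fat body, muscle, cuticle-forming epidermis, trachea and blood cells, and a whole-head sample measures all of them at once.

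After 5 exposures, 231 probe sets were higher (2.48%) and 359 were lower (3.86%) than in naive heads, of 9311 tested, by limma with a Benjamini-Hochberg adjusted p below 0.05. The calls made up 6.34% of the probe sets tested. Taking 1 probe set per gene, 494 of 7453 genes were called, or 6.63%, with 194 higher, 2.60%, and 300 lower, 4.03%. Most of these changes were small: the median fold change of the probe sets called higher was 1.19, and 19 higher and 42 lower probe sets differed by more than 1.5-fold. A difference of more than 2-fold was seen for 3 higher and 10 lower probe sets. The median log2 fold change of all genes was 0.008, and 54.1% of genes had a fold change above 1. The number of probe sets called higher was 143 without five-exposure replicate 3 and 153 without five-exposure replicate 4.

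The naive array that differed most from its group in the genes described here was replicate 4. For many of them its value lay on the side of the five-exposure heads, and it was the lowest or highest naive array by a wide margin for 12 of them. Genes are named below as having risen or fallen after 5 exposures only if they were also called without that array, and without each of the other 11 arrays in turn. This was a rule of choice and not a result. Of all 194 genes higher and 300 lower, 109 and 213 kept their call in every such fit. Over all probe sets, the lowest correlation with its own group was that of naive replicate 5, at 0.9818, and the other 17 arrays were at 0.9877 or above. Without naive replicate 4, 268 probe sets were higher and 407 lower. The array serial numbers in the labels run in order through the naive, single-exposure and five-exposure groups, so any effect of processing order cannot be told apart from the groups.

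**Figure D1:**
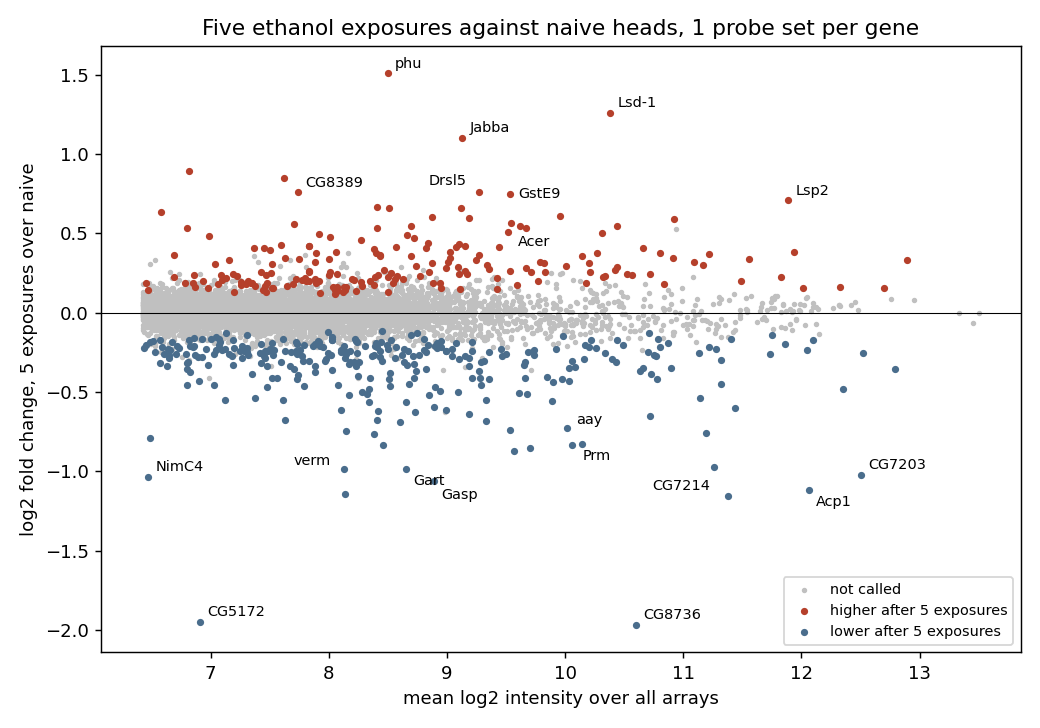
Each point is 1 gene, with its mean log2 intensity over all arrays on the horizontal axis and its log2 fold change, five-exposure over naive heads, on the vertical axis. The 194 genes higher after 5 exposures and the 300 lower genes are coloured, and the labelled lipid droplet genes Lsd-1 and Jabba lie at the top while cuticle genes lie at the bottom.

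The clearest rise was in genes for storing and burning fat. Fat is kept in lipid droplets, whose surface proteins control the access of lipases, and the fatty acids released are carried into mitochondria on carnitine and broken down by beta-oxidation. Of 16 tested genes for droplet proteins, lipoprotein receptors and lipases, 7 rose and 1 fell, which is 43.8% higher against 2.60% of all genes. Of 22 tested genes of fatty acid oxidation, 9 rose and 1 fell, or 40.9% higher. Calls kept in every fit that left out 1 array were fewer. They numbered 5 higher and 0 lower on the droplet and lipase list, and 6 higher and 1 lower on the oxidation list. Of all genes, 1.46% were so called as higher and 2.86% as lower. The median log2 fold changes were 0.10 for the droplet and lipase list and 0.14 for the oxidation list. Members of these and all later lists were chosen with earlier results of these data known, so their shares test no group of genes.

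Lsd-1 encodes perilipin 1, which coats lipid droplets in the fat body. Its lowest, median and highest intensities were 1296, 1488 and 1853 in five-exposure heads, against 484, 656 and 726 in naive heads. The groups did not overlap, and Lsd-1 rose 2.40-fold (95% interval 2.08 to 2.77, adjusted p = 4.14e-08). After 1 exposure the mean was higher still, at 2493 ± 275, and 5 exposures stood at 0.610 of that level (adjusted p = 4.16e-05).

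Jabba, a droplet protein that also anchors histones to droplets in the embryo, had intensities of 714, 750 and 896 in five-exposure heads, against 336, 353 and 459 in naive heads. Again no five-exposure array reached down to a naive one, and the fold change was 2.15 (1.90 to 2.43, adjusted p = 3.08e-08). In contrast to Lsd-1, the five-exposure level of Jabba was above that after 1 exposure, by 1.26-fold (adjusted p = 0.0136), a difference that lost its call when weakly expressed probe sets were kept in the test.

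Lipases rose by less. The patatin-family lipase gene dob averaged 234 ± 21.0 in five-exposure heads and 160 ± 24.2 in naive heads (SD, n = 6 each), a fold change of 1.48 (adjusted p = 0.000531) with no overlap. Lip4, an acid-lipase relative, ranged between 173 and 233 in five-exposure heads and between 149 and 187 in naive heads (1.32-fold, adjusted p = 0.000789), and its one high naive array was replicate 4. Lip4 did not pass the test after 1 exposure, and after 5 exposures it was 1.28 times the single-exposure level (adjusted p = 0.00175). CG5966, annotated as a lipase, ranged between 78.9 and 226 in five-exposure heads and between 20.4 and 124 in naive heads, where 4 of 6 arrays lay below the intensity floor of 57.8 used in the fit. Its fold change of 1.86 on floored values (adjusted p = 0.0188) was no longer called with weak probe sets kept in the test (0.0802) or with a trended prior (0.0507). Brummer, bmm, the main triglyceride lipase of fly fat body, averaged 379 ± 37.1 in five-exposure heads and 400 ± 61.2 in naive heads (adjusted p = 0.817).

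The beta-oxidation genes that rose cover successive steps of the pathway. Colt carries acylcarnitine into mitochondria, and colt ranged between 618 and 752 in five-exposure heads and between 457 and 603 in naive heads, a fold change of 1.34 (1.22 to 1.46, adjusted p = 0.000162). Acadvl, a very-long-chain acyl-CoA dehydrogenase, rose 1.27-fold (adjusted p = 0.0111). Scully, the product of scu, dehydrogenates 3-hydroxyacyl-CoA, and scu had the highest fold change of the list, with 906, 1023 and 1161 in five-exposure heads against 587, 730 and 809 in naive heads. The scu groups were fully separate and the fold change was 1.45 (1.30 to 1.61, adjusted p = 6.1e-05).

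At the end of the spiral, the thiolase gene yip2 rose 1.26-fold (adjusted p = 0.00137) and the acetoacetyl-CoA thiolase gene Acat1 rose 1.29-fold (adjusted p = 0.00135), both without overlap between groups. The gene wal, for the alpha subunit of the flavoprotein that takes up electrons from acyl-CoA dehydrogenases, averaged 1459 ± 68.6 in five-exposure heads and 1244 ± 45.0 in naive heads (1.17-fold, adjusted p = 0.00204). For scu, colt, Acat1 and wal the five-exposure level also exceeded that after 1 exposure, by 1.42-fold, 1.28-fold, 1.34-fold and 1.21-fold (adjusted p of 5.63e-05, 0.000592, 0.000195 and 0.000278). The member that fell was Had1, at 0.740 of naive (adjusted p = 0.0111), which is also on the list of fat body genes.

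Genes that build fatty acids moved less. Of 22 tested, 3 rose (13.6%) and 2 fell (9.09%), against 2.60% and 4.03% of all genes, with a median log2 fold change of 0.03. In every fit that left out 1 array, 2 were called higher and 0 lower. FASN1, the fatty acid synthase of the fat body, averaged 2454 ± 295 in five-exposure heads and 1903 ± 234 in naive heads, a fold change of 1.29 (adjusted p = 0.0138, or 0.0544 with weak probe sets kept). The acyl-CoA synthetase gene Acsl rose 1.25-fold (adjusted p = 0.0048). Outside the lists, Hacd1, whose product dehydrates 3-hydroxyacyl-CoA during elongation of very long fatty acids, ranged between 508 and 560 in five-exposure heads and between 374 and 436 in naive heads. This 1.33-fold rise (1.25 to 1.41, adjusted p = 6.48e-06) was larger than the spread within either group, and the level was 1.26 times that after 1 exposure (adjusted p = 2.11e-05).

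**Figure D2:**
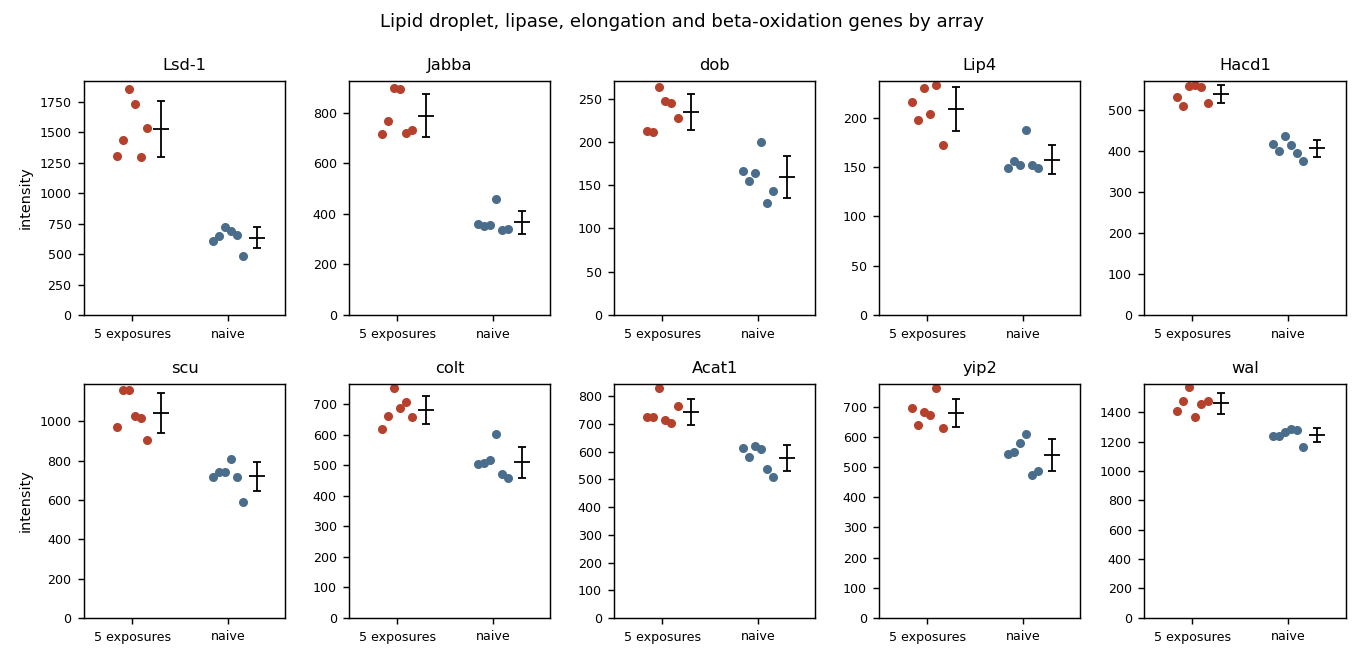
Intensity (vertical axes, from 0) of 10 lipid genes on each array, five-exposure heads left and naive heads right, with the mean and SD in black beside the points. Of these genes, Lip4 is the one whose groups overlap, through naive replicate 4 at 187.

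Serine, folate and purine synthesis fell together. Cells make serine from a glycolytic intermediate, pass its carbon to folate as serine becomes glycine, and spend folate-bound carbon on building purines. Of 17 tested serine and one-carbon genes 6 fell and 0 rose, or 35.3% lower against 4.03% of all genes, with a median log2 fold change of -0.15. Of 10 tested purine genes 4 fell and 0 rose, or 40.0%, with a median of -0.12. The 2 groups of arrays did not overlap for 6 of those 17 genes and 4 of those 10, as for 3.72% of all genes tested.

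Astray, aay, the phosphoserine phosphatase that completes serine synthesis, gave intensities of 649, 713 and 754 in five-exposure heads, against 1051, 1169 and 1224 in naive heads. The fold change of 0.605 (0.564 to 0.649) had an adjusted p of 4.3e-09. CG6287, the predicted first enzyme of serine synthesis, averaged 1192 ± 34.8 in five-exposure heads and 1457 ± 71.1 in naive heads (fold change 0.818, adjusted p = 3.98e-05).

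Shmt, which splits serine into glycine and folate-bound carbon, gave 543, 581 and 675 in five-exposure heads, against 770, 835 and 1018 in naive heads (fold change 0.701, adjusted p = 6.82e-05). The gene pug, for a folate enzyme that makes and uses 10-formyl-tetrahydrofolate, averaged 758 ± 53.4 and 1119 ± 110 in five-exposure and naive heads (fold change 0.679, adjusted p = 1.38e-05). Mitochondrial Nmdmc, a methylene-tetrahydrofolate dehydrogenase, averaged 175 ± 15.5 in five-exposure heads and 252 ± 31.9 in naive heads (fold change 0.699, adjusted p = 0.00154). CG3999, predicted to encode the glycine decarboxylase of the glycine cleavage system, reached 0.728 of naive (adjusted p = 0.00334).

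Of these genes, pug, CG6287 and CG3999 were not called after 1 exposure, at 0.915, 0.975 and 1.05 of naive (adjusted p of 0.379, 0.738 and 0.811). The others were highest after 1 exposure. In naive heads, after 1 exposure and after 5 exposures, aay averaged 1165 ± 61.5, 1357 ± 75.3 and 706 ± 42.6, Shmt averaged 859 ± 84.3, 1077 ± 108 and 601 ± 49.8, and Nmdmc averaged 252 ± 31.9, 550 ± 93.2 and 175 ± 15.5. All 3 genes were above naive after 1 exposure (adjusted p of 0.00777, 0.00649 and 9.05e-08) and below naive after 5. Levels after 5 exposures were 0.520 of the single-exposure level for aay, 0.559 for Shmt and 0.321 for Nmdmc (adjusted p of 2.46e-11, 3.63e-08 and 2.19e-10). Across the serine and one-carbon list, 8 genes were lower and 1 higher after 5 exposures than after 1, where 4.94% of all genes were lower and 3.94% higher. Gnmt, which consumes methyl groups on glycine, averaged 548 ± 62.4, 804 ± 169 and 439 ± 95.5 at 0, 1 and 5 exposures. Its five-exposure level did not pass the test against naive heads (adjusted p = 0.166) but did against 1 exposure, at 0.544 of it (adjusted p = 0.000137).

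Gart, a trifunctional enzyme of purine synthesis, showed the largest fall of both lists. Its intensities were 226, 249 and 309 in five-exposure heads, against 424, 502 and 624 in naive heads. The fold change was 0.506 (0.444 to 0.576, adjusted p = 5.18e-07). Pfas, another enzyme of purine synthesis, averaged 303 ± 15.2 in five-exposure heads and 449 ± 27.4 in naive heads (fold change 0.676, adjusted p = 5.07e-05), and Paics, of the same pathway, fell to 0.839 of naive (adjusted p = 0.00152). The 3 synthesis genes were also lower than after 1 exposure, at 0.520, 0.630 and 0.772 of it (adjusted p of 2.85e-07, 3.09e-06 and 1.51e-05).

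The fourth purine gene acts in breakdown: rosy, ry, encodes xanthine dehydrogenase, which makes uric acid. It averaged 137 ± 8.11 in five-exposure heads and 171 ± 11.6 in naive heads (fold change 0.797, adjusted p = 0.000477). After 1 exposure ry was at a similar 133 ± 9.42, and 5 exposures against 1 gave a fold change of 1.03 with an interval of 0.949 to 1.11.

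**Figure D3:**
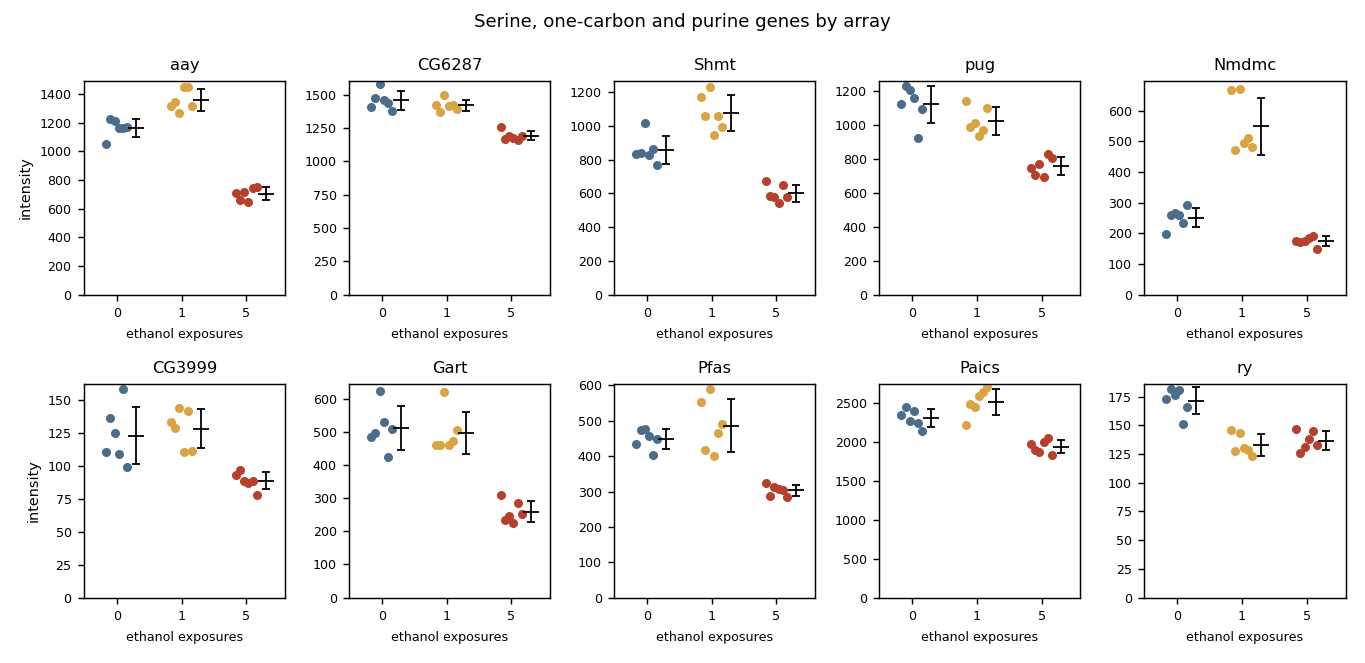
Intensity (vertical axes, from 0) of 10 serine, one-carbon and purine genes on each array after 0 (naive), 1 and 5 ethanol exposures, with mean and SD in black. In each panel all 6 five-exposure points lie below all 6 naive points, while the single-exposure points of aay, Shmt and Nmdmc have means above the naive ones.

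Amino acid breakdown and the pathways that start at tyrosine were lower as well. Tyrosine is degraded to fumarate and acetoacetate, or hydroxylated with a pterin cofactor to give dopamine, from which flies make cuticle pigment and neurotransmitter. Of 22 tested amino acid breakdown genes 7 fell and 1 rose (31.8% lower, median log2 fold change -0.12). Of 19 tested dopamine and pigment genes 7 fell and 0 rose (36.8% lower, median -0.09), and 6 were lower in every fit that left out 1 array. Of all genes, 4.03% were lower and 2.60% higher, and 2.86% were lower in every such fit.

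Hpd, the dioxygenase that opens tyrosine degradation after transamination, gave 458, 618 and 801 in five-exposure heads, against 888, 998 and 1191 in naive heads. The groups did not overlap, and the fold change was 0.600 (0.522 to 0.689, adjusted p = 4.15e-05). The following enzymes fell less: hgo, homogentisate dioxygenase, reached 0.855 of naive (adjusted p = 0.00256), and Faa, fumarylacetoacetase, reached 0.849 (adjusted p = 0.0095).

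Enzymes that handle other amino acids followed. Ornithine aminotransferase, Oat, averaged 629 ± 67.0 in five-exposure heads and 895 ± 109 in naive heads (fold change 0.705, adjusted p = 0.000465). Glutamate dehydrogenase, Gdh, stood at 0.844 of naive (adjusted p = 0.00265) and the aspartate aminotransferase Got2 at 0.826 (adjusted p = 0.00269), each with separate groups. CG10621, predicted to transfer methyl groups to homocysteine, had a fold change of 0.597 (adjusted p = 0.00582). The member that rose was Srr, serine racemase, with 145 ± 9.93 in five-exposure heads and 104 ± 14.6 in naive heads (1.40-fold, adjusted p = 0.000415), where naive replicate 4 at 133 overlapped the five-exposure range.

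Pu, GTP cyclohydrolase, opens pterin synthesis, and its intensities were 490, 550 and 627 in five-exposure heads, against 688, 780 and 952 in naive heads (fold change 0.684, 0.605 to 0.772, adjusted p = 0.000233). Later pterin enzymes were also lower, Sptr at 0.767 of naive (adjusted p = 0.00037) and pr at 0.853 (adjusted p = 0.00597). Pale, ple, is tyrosine hydroxylase, the enzyme that commits tyrosine to dopamine. It averaged 432 ± 27.3 in five-exposure heads and 616 ± 106 in naive heads (fold change 0.709, adjusted p = 0.000531) with no overlap. The dopamine N-acetyltransferase gene speck reached 0.752 of naive (adjusted p = 0.00804). Hpd, Pu and ple had already fallen after 1 exposure, to 0.643, 0.763 and 0.733 of naive (adjusted p of 0.00017, 0.0067 and 0.00159). The fold change of 5 exposures over 1 had intervals of 0.811 to 1.07 for Hpd, 0.793 to 1.01 for Pu and 0.858 to 1.09 for ple.

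Muscle genes were lower after 5 exposures. The sarcomere is built of thick filaments of myosin and paramyosin, thin filaments of actin, tropomyosin and troponin, and Z-discs that anchor the thin filaments. Of the tested genes, 4 of 8 for the thick filament and 6 of 9 for the thin filament fell, and 0 rose. On a wider list of Z-disc and accessory muscle genes 8 of 18 fell and 0 rose. These are 50.0%, 66.7% and 44.4% of the members, against 4.03% of all genes, with median log2 fold changes of -0.22, -0.26 and -0.09. In every fit that left out 1 array, 3, 4 and 8 of them were called lower, as were 2.86% of all genes. In whole heads, fewer muscle cells and less of these RNAs per cell cannot be told apart.

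Paramyosin, Prm, the core protein of insect thick filaments, gave 624, 794 and 884 in five-exposure heads, against 938, 1446 and 1691 in naive heads. No arrays overlapped, although naive replicate 4 was the naive minimum, and the fold change was 0.560 (0.480 to 0.653, adjusted p = 3.36e-05). The myosin light chain genes Mlc1 and Mlc2 stood at 0.591 and 0.716 of naive (adjusted p of 0.000262 and 0.000707). Mlc2 alone of the 3 overlapped, through naive replicate 4 at 4650 against a five-exposure maximum of 5010.

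On the thin filament, upheld, up, encodes troponin T, and averaged 1296 ± 158 in five-exposure heads and 2038 ± 270 in naive heads (fold change 0.637, adjusted p = 4.88e-05). A second, dimmer up probe set gave 0.971 (adjusted p = 0.758). TpnC41C, a troponin C gene, reached 0.727 of naive (adjusted p = 0.00016), tropomyosin Tm2 0.706 (adjusted p = 0.000971) and the actin gene Act79B 0.787 (adjusted p = 0.00822). Not every thin filament gene moved: the flight muscle actin gene Act88F ranged between 98.0 and 146 in five-exposure heads and between 97.8 and 131 in naive heads (adjusted p = 0.829), and TpnC73F averaged 106 ± 7.76 in five-exposure heads and 102 ± 5.05 in naive heads (adjusted p = 0.694).

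Actn, alpha-actinin, crosslinks actin at the Z-disc. Its intensities were 418, 486 and 591 in five-exposure heads, against 584, 822 and 890 in naive heads, a fold change of 0.624 (0.547 to 0.711, adjusted p = 5.07e-05). The lowest naive value was again replicate 4, the one array that met the five-exposure range. SERCA, the calcium pump that relaxes muscle, reached 0.734 of naive (adjusted p = 0.000512), and l(2)efl, a small heat shock protein related to alpha-B-crystallin, 0.753 (adjusted p = 0.00253).

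Smaller falls were measured for Zasp66 at the Z-disc (0.858, adjusted p = 0.00352), the homeobox gene slou (0.855, adjusted p = 0.00187) and arginine kinase, Argk1 (0.887, adjusted p = 0.00753), whose second probe set gave 0.931 (adjusted p = 0.373). Msp300, a nuclear and Z-disc anchoring protein, fell to 0.782 on its brightest probe set (adjusted p = 7.23e-05), while its other 2 gave 0.992 and 0.911 (adjusted p of 0.919 and 0.442). The titin-like gene sls averaged 234 ± 10.1 in five-exposure heads and 223 ± 13.1 in naive heads (adjusted p = 0.494). After 1 exposure, 0 genes of the thick and thin filament lists were called against naive heads, where 2.75% of all genes were higher and 1.91% lower. On the Z-disc and accessory list 1 gene was higher and 0 lower after 1 exposure. Directly compared, Prm, Mlc1, up and Actn were at 0.677, 0.677, 0.703 and 0.723 of the single-exposure level after 5 exposures (adjusted p of 0.00121, 0.00296, 0.000374 and 0.00149).

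Cuticle genes held many of the largest falls of the comparison. Epidermal cells secrete chitin and proteins that bind it, many of them of the Rebers-Riddiford family, named Cpr, and young adults still add layers of cuticle after they emerge. Of 51 tested Cpr genes 10 fell and 0 rose (19.6% lower, median log2 fold change -0.06). Of 40 other cuticle-associated genes 17 fell and 1 rose (42.5% lower, median -0.05), where 4.03% of all genes were lower. Many members of both lists thus lay near no change while a subset was far lower. In every fit that left out 1 array, 7 Cpr genes and 16 of the others were lower, as were 2.86% of all genes. Because the members were chosen with earlier results of these data known, these shares do not test whether cuticle genes fell as a group.

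CG8736, a cuticle-associated gene, had the lowest fold change of that list. It gave 421, 660 and 1167 in five-exposure heads, against 1466, 2811 and 3913 in naive heads, a fold change of 0.256 (0.182 to 0.360, adjusted p = 1.75e-05). The 2 groups were separate even though each spread by more than 2-fold. Acp1, an abundant adult cuticle protein, gave 1527, 2662 and 3854 in five-exposure heads, against 4156, 5844 and 6770 in naive heads (fold change 0.461, 0.357 to 0.595, adjusted p = 0.000317).

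Acp1 lies beside CG7214 in the genome, with CG7203 close by, by gene order in RefSeq. CG7214 stood at 0.450 of naive (adjusted p = 0.00117) and CG7203 at 0.493 (adjusted p = 0.000101), while ATPsynGL, between these last 2 genes, gave 0.969 (adjusted p = 0.793). Another pair of neighbours, Cpr97Ea and Cpr97Eb, fell to 0.708 and 0.561 of naive (adjusted p of 0.000104 and 1.15e-05). Vajk3 and its neighbour Vajk2 gave 0.546 and 0.687 (adjusted p of 0.000122 and 0.000292), and Vajk1, 3 genes away, gave 0.985 (adjusted p = 0.921).

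Proteins that bind or modify chitin fell alongside. Gasp, a chitin-binding protein, gave 268, 301 and 447 in five-exposure heads, against 429, 696 and 786 in naive heads, a fold change of 0.480 (0.390 to 0.590, adjusted p = 6.13e-05). The overlap came from naive replicate 4, at 429, and five-exposure replicate 1, at 447. Vermiform, verm, a chitin deacetylase, averaged 183 ± 22.3 in five-exposure heads and 365 ± 58.7 in naive heads (fold change 0.505, adjusted p = 7.66e-06), and obst-A, another chitin-binding protein, reached 0.588 of naive (adjusted p = 6.1e-05).

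Among the Cpr genes, Cpr100A had intensities of 735, 821 and 959 in five-exposure heads, against 1081, 1499 and 1760 in naive heads (fold change 0.564, adjusted p = 1.15e-05). Cpr62Bc, Cpr92F, Cpr49Ae and Cpr11B reached 0.649, 0.728, 0.732 and 0.776 of naive (adjusted p of 0.000324, 0.000128, 0.00181 and 0.001). TwdlM, of the Tweedle family, fell to 0.811 (adjusted p = 0.00016), and its second probe set gave 0.953 (adjusted p = 0.582). CG13043 was at 0.452 of naive (adjusted p = 4.15e-05). Idgf6, a chitinase-like protein, was the member that rose, by 1.30-fold (adjusted p = 0.0048), and it is named here because it alone went the other way, a choice made after its values were seen. No Cpr gene was called after 1 exposure in either direction, where 2.75% of all genes were higher and 1.91% lower. Among the Cpr genes named here, fold changes after 1 exposure lay between 0.811 for Cpr100A (adjusted p = 0.0834) and 1.04 for Cpr11B (adjusted p = 0.751). Cpr49Ae, at 0.813, came closest to a call (adjusted p = 0.0525).

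**Figure D4:**
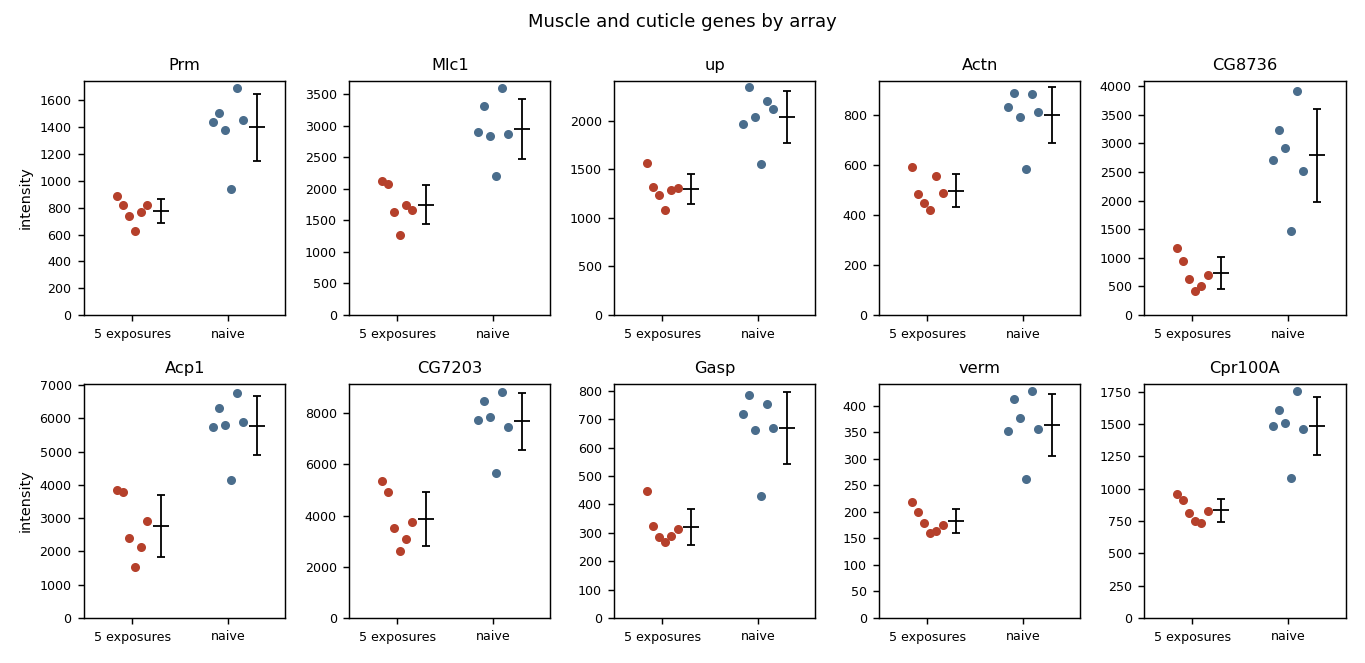
Intensity (vertical axes, from 0) of 4 muscle genes and 6 cuticle genes on each array, five-exposure heads left and naive heads right, with mean and SD in black. Naive replicate 4 is the lowest naive point in every panel, and up, Actn and Gasp are the panels where it meets the five-exposure range.

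Sugar metabolism showed smaller and mixed changes. Of 24 tested glycogen, trehalose, maltase and gluconeogenesis genes, 5 rose (20.8%) and 4 fell (16.7%), against 2.60% and 4.03% of all genes. Leaving out five-exposure replicate 3, 4 or 6, or naive replicate 2, 5 or 6, gave 2 higher in place of 5. Calls kept in each of the 12 fits that leave out 1 array, which 1.46% of all genes had as higher and 2.86% as lower, numbered 1 higher and 3 lower. Glycogen synthase, Glys, ranged between 358 and 395 in five-exposure heads and between 409 and 504 in naive heads (fold change 0.827, adjusted p = 0.0111), and fructose-1,6-bisphosphatase, fbp, reached 0.792 (adjusted p = 0.00137). Glycogen phosphorylase, Glyp, was at 0.765 (adjusted p = 0.0184), a call lost when weak probe sets were kept (0.0691). The gene higher in all 12 fits was the maltase gene Mal-B2, by 1.25-fold (adjusted p = 0.00959). All 10 tested glycolysis genes had fold changes below 1, between 0.854 and 0.972. Of these 2 fell, and 1 did so when five-exposure replicate 3, 4 or 6 or naive replicate 2 or 3 was left out. Pglym78, phosphoglycerate mutase, was the one lower in every such fit, at 0.859 (adjusted p = 0.00565). Pepck1, which opens gluconeogenesis, averaged 1387 ± 524, 3066 ± 107 and 1931 ± 498 at 0, 1 and 5 exposures. It passed the test after 1 exposure (2.35-fold, adjusted p = 0.000189) and not after 5 (1.44-fold, adjusted p = 0.115), but without naive replicate 4 the five-exposure rise was called (adjusted p = 0.0113).

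Genes nearest to ethanol metabolism were tested only in part. Adh, Aldh and Hsp70 were not among the genes tested, nor were Act5C, elav and ninaE. Of 9 tested alcohol and aldehyde metabolism genes 1 rose and 1 fell, or 11.1% each, against 2.60% and 4.03% of all genes. By limma, 4 of the 9 had an unadjusted p below 0.05, where 18.1% of all genes did. Fdh, which oxidises formaldehyde bound to glutathione, averaged 406 ± 41.9 in five-exposure heads and 315 ± 26.1 in naive heads (1.29-fold, adjusted p = 0.00271), and the malic enzyme gene Men-b reached 0.795 of naive (adjusted p = 0.000555). Sodh1, sorbitol dehydrogenase, which is not on that list, fell to 0.553 (adjusted p = 0.000151).

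AcCoAS, which activates acetate, averaged 2274 ± 281, 3574 ± 258 and 2397 ± 215 at 0, 1 and 5 exposures. Its level after 5 exposures was 0.670 of that after 1 (adjusted p = 1.93e-05), and its fold change over naive was 1.06 (0.948 to 1.18, adjusted p = 0.678). Malic enzyme, Men, which supplies NADPH, followed the same course with 1565 ± 183, 3042 ± 175 and 1566 ± 86.8. Its level after 5 exposures over that after 1 was 0.515 for Men (adjusted p = 9.44e-10), and over naive it was 1.0 with an interval of 0.918 to 1.10. GstD1, a glutathione transferase, averaged 2480 ± 73.3, 3752 ± 251 and 2301 ± 65.9 at the same 3 levels (5 over 1 exposure 0.614, adjusted p = 2.19e-10). The juvenile hormone epoxide hydrolase Jheh2 averaged 795 ± 106, 1743 ± 180 and 911 ± 42.8, and 5 over 1 exposure was 0.525 (adjusted p = 3.56e-08). Jheh2 was not called against naive heads (adjusted p = 0.141), but it was without naive replicate 4 (0.0397).

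The small heat shock gene Hsp26 averaged 149 ± 11.6, 262 ± 149 and 148 ± 5.69 at 0, 1 and 5 exposures, and was not called between 5 exposures and naive heads (adjusted p = 0.989).

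Of 30 tested glutathione transferases, 2 rose (6.67%) and 5 fell (16.7%), against 2.60% and 4.03% of all genes, with a median log2 fold change of -0.01. In every fit that left out 1 array, 2 were called higher and 2 lower. The number lower was 2 with five-exposure replicate 2 left out, and 3 with five-exposure replicate 4 or 5 or naive replicate 2, 3, 5 or 6 left out. Mgstl, the microsomal enzyme, ranged between 1777 and 2009 in five-exposure heads and between 1297 and 1547 in naive heads, and rose 1.33-fold (adjusted p = 3.98e-05) with like values on its other 2 probe sets. GstE9 rose 1.68-fold (adjusted p = 0.000431). Sepia, se, an omega-class member that acts in eye pigment synthesis, fell to 0.650 of naive (adjusted p = 0.000835), and GstE13 fell to 0.849 (adjusted p = 0.00471). Of 55 tested cytochrome P450 genes 3 rose and 2 fell, shares of 5.45% and 3.64%, against 2.60% and 4.03% of all genes. Cyp4ac1 averaged 203 ± 29.4, 135 ± 20.1 and 272 ± 27.5 at 0, 1 and 5 exposures, below naive after 1 (adjusted p = 0.000668) and above it after 5 (adjusted p = 0.0112). Cyp309a1 went the other way, with 221 ± 35.1, 311 ± 25.6 and 159 ± 16.9 (adjusted p of 0.00087 after 1 and 0.00169 after 5). Cyp12b2, a mitochondrial P450, rose 1.27-fold (adjusted p = 0.000128) and Cyp313a1 reached 0.790 (adjusted p = 0.00793). Among esterases and conjugating enzymes, alpha-Est2 rose 1.30-fold (adjusted p = 0.00476) and Ugt49B1 reached 0.826 (adjusted p = 0.0123).

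Secreted factors and fat body products held some of the largest rises. The gene phu had the highest fold change of all genes: 732, 936 and 1304 in five-exposure heads, against 204, 366 and 544 in naive heads. It rose 2.84-fold (2.01 to 4.02, adjusted p = 0.000324) with no overlap, having been at 0.439 of naive after 1 exposure (adjusted p = 0.0036), so that 5 exposures stood 6.48-fold above 1 (adjusted p = 1.03e-07). Of 23 tested genes listed under satiety and nutrient signals, phu among them, 4 rose (17.4%) and 2 fell (8.70%), against 2.60% and 4.03% of all genes. In every fit that left out 1 array, 3 were called higher and 1 lower. One of these falls was lost when five-exposure replicate 3 or 4 or naive replicate 2 or 5 was left out. CCHa2, a nutrient-responsive peptide hormone, ranged between 470 and 527 in five-exposure heads and between 295 and 408 in naive heads, and rose 1.40-fold (adjusted p = 0.00125). Growth-blocking peptide 2, Gbp2, a fat body signal, rose 1.22-fold (adjusted p = 0.00986). Limostatin, Lst, which restrains insulin release, averaged 352 ± 38.1 in five-exposure heads and 573 ± 111 in naive heads (fold change 0.621, adjusted p = 0.000945), and had fallen to 0.527 after 1 exposure (adjusted p = 3.52e-05). The satiety peptide gene fit averaged 2544 ± 368, 1027 ± 251 and 2803 ± 624 at 0, 1 and 5 exposures, 2.73-fold higher after 5 than after 1 (adjusted p = 1.38e-06) and not called against naive (adjusted p = 0.791).

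Of 20 tested fat body genes 3 rose (15.0%) and 1 fell (5.00%), against 2.60% and 4.03% of all genes. Lsp2, a hexamerin storage protein, gave 3918, 4825 and 5511 in five-exposure heads, against 2003, 2899 and 3817 in naive heads (1.64-fold, 1.38 to 1.95, adjusted p = 0.000549), with no array in common range. Transferrin 1, Tsf1, which carries iron in the blood, averaged 4721 ± 248 in five-exposure heads and 3635 ± 387 in naive heads (1.30-fold, adjusted p = 0.000507). The yolk protein gene Yp1 averaged 11530 ± 355 and 11546 ± 376 in five-exposure and naive heads (adjusted p = 0.988). The summed intensity of 6 fat body markers ranged between 37845 and 43705 in five-exposure heads and between 37814 and 41411 in naive heads. Yp1 alone, at the means above, made up a large part of that sum. Of the 6 markers, 2 were called higher and 0 lower, and 2 had a fold change below 1.

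Of 38 tested immune genes 4 rose and 1 fell, or 10.5% higher and 2.63% lower, against 2.60% and 4.03% of all genes. A fall in 2 genes was called when naive replicate 1, 4 or 5 was left out. Drsl5, a drosomycin-like peptide, gave 783, 834 and 927 in five-exposure heads, against 449, 479 and 669 in naive heads, and the naive maximum was replicate 4. The rise was 1.69-fold (1.5 to 1.90, adjusted p = 6.48e-06), and Drsl5 after 5 exposures was 1.56-fold above its level after 1 (adjusted p = 1.54e-05). The virus-induced gene vir-1 rose 1.21-fold (adjusted p = 0.00476), or 1.59-fold on its second probe set, and the thioester protein Tep4 1.16-fold (adjusted p = 0.0129). PGRP-SB1, a peptidoglycan-binding protein, averaged 570 ± 68.3, 308 ± 23.8 and 472 ± 23.5 at 0, 1 and 5 exposures, below naive after 5 (adjusted p = 0.0171) and 1.54-fold above the level after 1 (adjusted p = 1.39e-06). The antifungal peptide gene Drs spread between 299 and 651 in five-exposure heads and between 348 and 1458 in naive heads, which left no difference detectable (adjusted p = 0.376). NimC4, a receptor for apoptotic cells on glia and macrophages, ranged between 44.7 and 65.8 in five-exposure heads and between 89.1 and 187 in naive heads. Its fold change of 0.488 (adjusted p = 1.38e-05) is on floored values, since 3 of 6 five-exposure arrays lay below the floor.

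Few genes of neurons, clocks and ethanol behaviour were called, where 6.63% of all genes were. At that share, lists of this size hold few calls, so 0 calls does not set them apart. Of 20 tested genes with a known part in fly ethanol behaviour, 0 were called by limma after 5 exposures and 3 had an unadjusted p below 0.05, where 18.1% of all genes did. The calcium-gated potassium channel gene slo, which acts in ethanol tolerance, averaged 367 ± 42.6 in five-exposure heads and 353 ± 50.4 in naive heads (1.04-fold, 0.912 to 1.19). For hangover, hang, a zinc finger gene needed for normal tolerance, the means were 135 ± 8.98 and 129 ± 12.8 in five-exposure and naive heads (1.05-fold, 0.937 to 1.17). These intervals leave room for changes of the size seen in many called genes.

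Of 18 tested potassium channels and partners 0 rose and 2 fell, or 11.1% lower, against 4.03% of all genes. These were the inward rectifier Irk2, at 0.805 of naive (adjusted p = 0.00156), and dystrobrevin, Dyb, at 0.843 (adjusted p = 0.0125). Of 15 tested activity-regulated genes 0 rose and 2 fell (13.3%), both in every fit that left out 1 array. Of 17 tested clock genes 0 were called and 0 had an unadjusted p below 0.05. The period gene per averaged 184 ± 12.3 in five-exposure heads and 179 ± 6.99 in naive heads. Clock, Clk, averaged 106 ± 8.70, 80.2 ± 6.42 and 102 ± 7.53 at 0, 1 and 5 exposures, lower after 1 (adjusted p = 0.000189) and 1.27-fold higher after 5 than after 1 (adjusted p = 0.000701). For tim the means at these levels were 218, 285 and 233, and five-exposure heads did not pass the test against naive heads (adjusted p = 0.661).

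Calls were also 0 by limma among 14 synaptic vesicle genes and 11 neuronal markers, where 6.63% of all genes were called. At an unadjusted p below 0.05 there was 1 of each, where 18.1% of all genes were. Histone acetylation genes, 13 tested, had 0 calls and 0 at that level. There were likewise 0 calls among 26 cytosolic ribosome genes, 27 proteasome genes, 61 mitochondrial ribosome genes and 16 genes of the citric acid cycle. Below that unadjusted level were 2, 1, 6 and 7 of them. Of 53 tested subunits of oxidative phosphorylation, 4 fell and 0 rose (7.55% lower), and 48 had a fold change below 1, with a median log2 fold change of -0.07. The number lower was 0 when five-exposure replicate 4 or 6 or naive replicate 5 was left out, 1 when five-exposure replicate 3 or naive replicate 2 was, and 2 when naive replicate 1 or 3 was. None of the 4 calls held in every fit that left out 1 array.

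Of neuropeptide precursors, 2 of 23 rose and 1 fell, or 8.70% and 4.35%, against 2.60% and 4.03% of all genes. Nplp3 was lower at 0.780 of naive (adjusted p = 0.00095), and lies 4 genes from CG13043 by gene order. Trissin rose 1.16-fold (adjusted p = 0.00477). The glial GABA transporter gene Gat averaged 378 ± 53.2 in five-exposure heads and 472 ± 26.2 in naive heads (fold change 0.795, adjusted p = 0.00552). The odorant-binding protein gene Obp56e averaged 1545 ± 179 in five-exposure heads and 2061 ± 255 in naive heads (adjusted p = 0.00543), the 1 call among 24 tested genes of chemosensation. That share, 4.17% lower, is near the 4.03% of all genes. Sestrin, Sesn, which restrains TOR signalling when amino acids are short, fell to 0.802 (adjusted p = 0.001). It was the 1 call among 17 tested genes of the insulin and TOR pathways, or 5.88% lower, where 4.03% of all genes were.

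**Figure D5:**
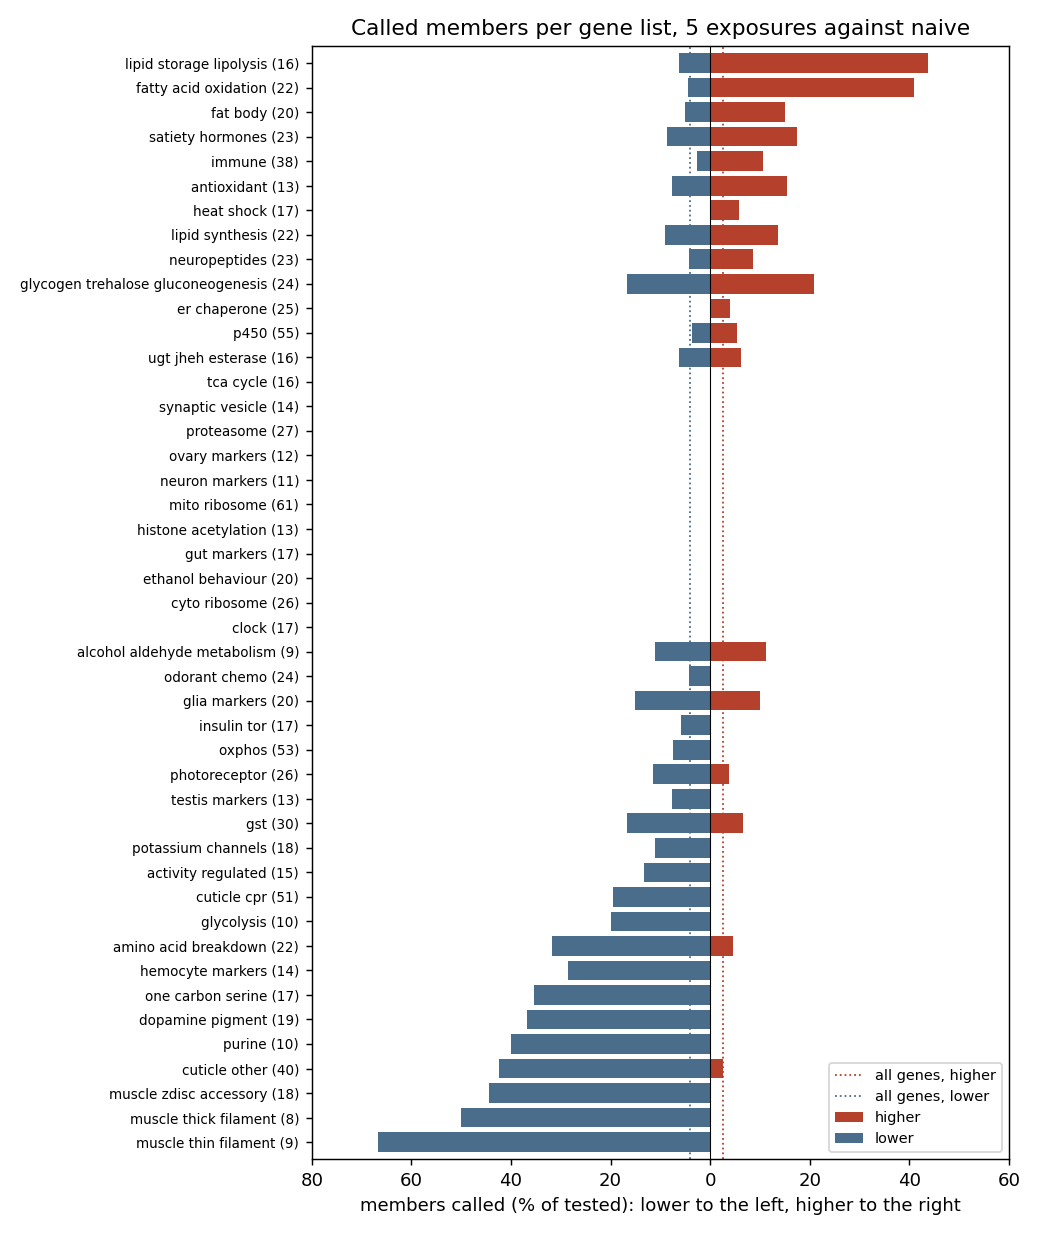
Share of the tested members of each gene list that were higher (right) or lower (left) after 5 exposures than in naive heads, for lists with 8 or more tested members, whose number stands in brackets. Dotted lines mark the shares of all genes, 2.60% higher and 4.03% lower, and the lists for lipid storage and fatty acid oxidation extend furthest to the right, while the thin and thick filament lists extend furthest to the left.

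Genes outside the lists were among the most certain calls. CG8389 gave 285, 302 and 357 in five-exposure heads, against 175, 179 and 201 in naive heads (1.69-fold, 1.57 to 1.83, adjusted p = 6.4e-09), and 1.79-fold above its level after 1 exposure (adjusted p = 4.55e-10). Acer, an angiotensin-converting enzyme relative, ranged between 854 and 985 in five-exposure heads and between 601 and 680 in naive heads (1.43-fold, adjusted p = 3.11e-07). CG31778, CG5618, CG18135 and kappaB-Ras, a small GTPase that holds back NF-kappaB signalling, rose by 1.80-fold, 1.59-fold, 1.58-fold and 1.58-fold, all without overlap. CG10026, CG6409 and CG17124 rose by 1.55-fold, 1.53-fold and 1.52-fold, also without overlap. CG5172 fell furthest with CG8736: it ranged between 55.2 and 64.8 in five-exposure heads, where 3 of 6 arrays were below the floor, and between 162 and 342 in naive heads. The fold change was 0.259 on floored values (adjusted p = 4.3e-09). CG11458 and CG13056 stood at 0.510 and 0.626 of naive (adjusted p of 4.95e-05 and 6.97e-06).

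Markers of tissues in the head were summed per array. The 6 muscle markers measured, of which TpnC4 was below the floor on all 12 arrays, ranged between 6635 and 9706 in five-exposure heads and between 9455 and 14286 in naive heads. Mlc1, Mlc2, Prm and up, described above as lower, are among these markers. Sums of 4 cuticle markers ranged between 1478 and 1954 in five-exposure heads and between 2182 and 3470 in naive heads. These markers are Cpr97Ea, Cpr97Eb, Cpr100A and Gasp, all 4 described above as lower, while only 10 of 51 tested Cpr genes fell. Their sum is therefore not independent of the falls above. The 6 neuronal markers summed to 1496 to 1892 in five-exposure heads and 1505 to 1813 in naive heads, and the 4 glial markers to 663 to 719 in five-exposure heads and 660 to 773 in naive heads. The glial transcription factor gene repo averaged 197 ± 13.5 in five-exposure heads and 197 ± 23.4 in naive heads (fold change 1.01, 0.908 to 1.12). Sums of 4 photoreceptor markers were 15343 to 17193 in five-exposure heads and 14257 to 16303 in naive heads. Of the 26 tested genes on the wider photoreceptor list 1 rose and 3 fell (11.5% lower, median log2 fold change -0.04), where 4.03% of all genes were lower. The one rise was lost on leaving out any of five-exposure replicates 3, 4, 5 and 6 and naive replicates 1, 2, 3 and 5. The 4 haemocyte markers, with eater below the floor throughout, summed to 605 to 668 in five-exposure heads and 576 to 608 in naive heads. Of 14 tested genes on the wider haemocyte list 0 rose and 4 fell (28.6% lower, median log2 fold change -0.04), where 4.03% of all genes were lower. NimC4 was the one lower in every fit that left out 1 array. The number lower was 1 on leaving out any of five-exposure replicates 3, 4 and 5 and naive replicates 3 and 6, and 2 on leaving out any of five-exposure replicates 2 and 6 and naive replicates 1, 2 and 5. Sums of 4 gut markers were 886 to 1093 and 933 to 1030 in five-exposure and naive heads. The testis markers dj and can, the ovary marker osk and the accessory gland marker Acp26Aa were below the floor on all 12 arrays. The part of these shifts in the results was not tested.

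The array also carries probe sets at the 3' and 5' ends of control transcripts, whose ratio rises as RNA is less complete. The log2 ratio for actin was 2.21 ± 0.15 in five-exposure heads and 2.01 ± 0.08 in naive heads (2-sided exact permutation p = 0.0216, adjusted over 4 ratios 0.0649). For 18S rRNA it was -2.13 ± 0.60 and -2.92 ± 0.44 in five-exposure and naive heads (exact p = 0.0325, adjusted 0.0649). GAPDH gave 1.30 ± 0.14 in five-exposure heads and 1.30 ± 0.26 in naive heads (exact p = 0.996), and eIF-4a gave 0.51 ± 0.11 in five-exposure heads and 0.54 ± 0.12 in naive heads (exact p = 0.693). The ribosomal protein gene RpL32 averaged 4160 ± 145 in five-exposure heads and 4009 ± 232 in naive heads (adjusted p = 0.577). The part of RNA quality in the results was not tested.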

How the data were processed

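The authors hybridised biotin-labelled cRNA, made from 6 µg of total RNA per sample, to 1-colour Affymetrix fly arrays, and deposited 1 linear intensity per probe set and array, per the labels and the deposited value table. The labels do not say how the deposited intensity values were summarised and scaled. Array medians lay between 125.4 and 129.3, so the values were taken as already scaled and were not normalised again. The number of arrays limits the precision.

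Of 14010 probe sets, 12443 have 1 gene symbol in GEO's platform annotation, 327 have several, 1196 have none and 44 are controls. Symbols were updated through RefSeq for 38. Values were raised to a floor of 57.8, the pooled 20th percentile, put on the log2 scale, and the lowest 1/3 of probe sets by mean was left out, which left 9311. One limma model (R 4.3.3, limma 3.58.1) was fitted to the 3 groups on all 18 arrays, with Benjamini-Hochberg adjustment over all 9311. It recovered 80% of simulated 1.2-fold changes and 100% of 1.5-fold changes among 9311 probe sets, with 10 false calls. The simulated spread was drawn independently for each probe set. Shifts that 1 array shares across many genes were not simulated, so these rates do not cover them. A gene is represented by its probe set of highest mean. Intensities are printed without the floor as mean ± SD over 6 arrays or as lowest, median and highest. Fold changes and 95% intervals come from the fit.

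The members of the 47 gene lists were chosen with earlier results of these data known, as were the tests and the rule for named genes: the 15 highest and 15 lowest fold changes, the 10 smallest p-values, up to 8 called and 4 uncalled members of each list, and a fixed panel. Of these, the text describes as called those whose call held without each array. Alternatives were quantile normalization, median centring, other filters and floors, a pseudocount, another prior, 2 groups only, array weights, the replicate number as a block and leaving out each array.

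Same-numbered arrays of both groups deviated from their group means with correlations between -0.24 and 0.446, so the numbers were not treated as pairs.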

Additional observations from a re-analysis of the deposited data

Results flagged for a closer look

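In groups of 6 arrays, 1 array was set apart from the other 5 by more than Dixon's 95% limit in 20 of 278 groups examined, where chance gives about 1 in 20. Of these, 12 were naive replicate 4. It was the highest naive array for Jabba at 459, Lip4 at 187, Srr at 133, Drsl5 at 669 and CG10026 at 93.0, and the lowest for Mlc2 at 4650, Actn at 584, SERCA at 2408, CG7214 at 2484, Gasp at 429, Nplp3 at 6754 and Gat at 420. In each case it lay on the side of the five-exposure heads.

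The other 8 flagged values came from both groups, some of them from the same array. In five-exposure heads these were CG6287 in replicate 1 at 1258, Act88F in replicate 2 at 146, Gasp in replicate 1 at 447 and Cpr62Bc in replicate 5 at 261. In naive heads they were aay in replicate 1 at 1051, slou in replicate 5 at 165, Cyp4ac1 in replicate 5 at 147 and Gbp2 in replicate 5 at 980. Unlike those of naive replicate 4, the flagged values of naive replicate 5 lay on the side away from the five-exposure heads.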

How the results depend on the processing

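Against 231 probe sets higher and 359 lower, the counts were 254 and 344 with quantile normalization, 232 and 367 with median centring, 199 and 314 with no filter on weak probe sets, 317 and 452 with array weights, and 196 and 323 with only the 2 groups in the fit. Leaving out 1 array gave between 143 and 268 higher and between 275 and 407 lower, and the lowest counts of higher probe sets were 143 without five-exposure replicate 3 and 153 without five-exposure replicate 4. The replicate number as a block gave 272 higher and 411 lower, although the numbers do not pair the arrays. The genes named as called were chosen for keeping their call in every fit that left out 1 array. They also kept their direction in every alternative run. Keeping weak probe sets ended the calls of CG5966, FASN1 and Glyp, and a trended prior that of CG5966. Array signal near the floor limits CG5966, CG5172 and NimC4.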
